A study of Rattus norvegicus with 31 samples.

Results

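The liver makes most of the complement and coagulation factors of blood plasma, and the transcripts of these factors were followed here in rat liver across pesticide treatments. The members were chosen by symbol, as 37 listed genes for secreted factors of both systems, and 34 of the 37 had a row in the count table of 26312 genes. No row carried the symbols Kng1, Cpb2 or Cfb, and no value is given for them. All 34 members passed the filter on low counts that left 19904 genes for testing. RNA-Seq was done on livers of 31 young adult female Wistar rats, strain Crl:WI, which were dosed daily by oral gavage for 28 days. The 8 control rats received the vehicle, 0.5% aqueous carboxymethyl-cellulose, which all treated rats received as well. Single compounds were the neonicotinoids thiacloprid (THI, 108 mg/kg bw/day, 4 rats) and clothianidin (CTD, 288 mg/kg bw/day, 3 rats) and the azole fungicide imazalil (IMZ, 93 mg/kg bw/day, 4 rats). The paper marks the CTD group for killing in moribund condition, and its 3 rats are those that remained. No other group used here carries this mark. The mixtures, with 4 rats each, were THI + IMZ at 54 and 46 mg/kg bw/day, THI + CTD at 54 and 134 mg/kg bw/day, and IMZ + CTD at 46 and 135 mg/kg bw/day.

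Coagulation runs as a chain in which inactive proteases cleave and activate each other until thrombin turns fibrinogen into fibrin. Complement is a second protease chain, started by antibody-bound C1, by sugar-binding lectins or by spontaneous turnover of C3, which coats targets and assembles a pore from the terminal components. Serpins, inhibitors that trap their target protease irreversibly, restrain both chains, and hepatocytes secrete most of these proteins, so that their plasma levels are used as a readout of the liver's synthetic function.

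The libraries held between 31.8 M and 101.2 M counts. The lowest count of any member in any library was 1899 (Mbl2), so counting error was small beside the spread between rats. Levels are given as CPM, counts scaled to the TMM-normalized library size, and are compared between rats, not between genes, since transcript length was not taken into account. Among the controls the coefficient of variation was below 10% for 20 of the 34 members, with a median of 7.77% and a range from 3.0% for Masp2 to 36.1% for C8b. The 10 hepatocyte markers, with Alb and Ttr among them, made up 21% to 24.7% of the counts in the controls and 21.5% to 22.6% with CTD. A change is called where the adjusted p of edgeR's quasi-likelihood test was under 0.05 over all genes tested. The treatments share the same 8 controls, so that their fold changes are not independent of each other.

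With CTD alone 12 of the 34 members were called, 11 of them down-regulated and 1 up-regulated, while 12.7% of all genes tested were called, 6.03% as lower and 6.62% as higher. Since members are strongly expressed, the 1732 genes at or above the lowest member's mean level are the closer background, and of these 25.1% were called, 15.7% as lower and 9.35% as higher. THI + CTD gave 4 down-regulated members against 4.39% of all genes called, 1.71% as lower, and 5.08% as lower among the 1732 genes. No member was called with THI (0.543% of all genes called), IMZ (0.251%), THI + IMZ (1.18%) or IMZ + CTD (1.46%) by edgeR. At an unadjusted p under 0.05 there were 4 members with THI, 6 with IMZ, 4 with THI + IMZ and 2 with IMZ + CTD, and the Wald test of DESeq2 called 2, 2, 1 and 0 of them. Counts at an unadjusted p or by DESeq2, here and below, stand without the share of all genes. They are therefore not read as a result about the members. In bulk tissue, fewer cells of a type and less RNA per cell cannot be told apart. The CTD count rested in part on 1 rat, since 4 members (C8g, Serping1, F12 and Pros1) were called without CTD replicate 1. The THI + CTD count fell to 2 without THI + CTD replicate 2 or without Control replicate 5, 7 or 8, and to 1 without THI + CTD replicate 3.

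**Figure D1:**
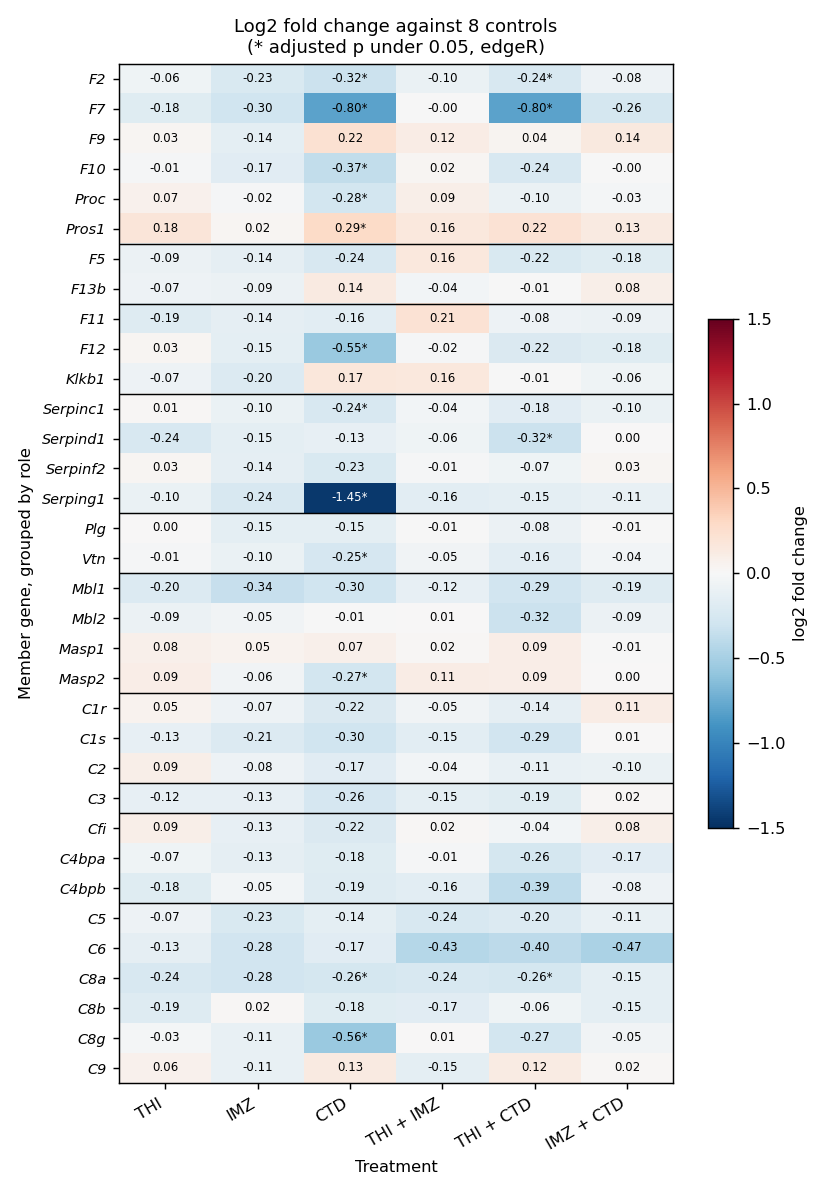
Log2-fold change against the 8 controls for the 34 members (rows, grouped by role and separated by lines) and the 6 treatments (columns), with asterisks at an adjusted p under 0.05. The CTD column holds 12 asterisks, of which Serping1 at -1.45 is the darkest cell, and the THI, IMZ, THI + IMZ and IMZ + CTD columns hold none.

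The median log2-fold change over the 34 members was -0.22 with CTD and -0.17 with THI + CTD, where the medians over all genes tested were -0.07 and -0.03. With IMZ it was -0.13, with THI -0.06, with IMZ + CTD -0.06 and with THI + IMZ -0.03, against medians between -0.03 and -0.01 over all genes. The medians are not set here against the 1732 strongly expressed genes, of which more were called as lower than as higher with CTD. The summed level of the 34 members was 48740 to 57060 CPM in the controls and 44010, 44740 or 46960 CPM in the 3 CTD rats, so the groups did not overlap. As a share of all counts these were 4.94% to 5.46% and 4.51% to 4.80%. C3, which was not called, averaged 22372 CPM in the controls and 18729 CPM with CTD. The sum of all 34 members averaged 53070 and 45240 CPM, so C3 was a large part of it. In THI + CTD livers the sum ran from 43690 to 52010 CPM and overlapped the controls, as it did with the other 4 treatments. With CTD all 3 rats lay below all controls for 13 members (5.48% of all genes) and above all controls for 1 (5.33%). With THI + CTD all 4 rats lay below all controls for 7 members (1.82% of all genes). With IMZ + CTD this held for 2 members, F12 and C6 (1.01%), with IMZ for C8a (0.553%) and with THI for Serpind1 (0.688%), while Pros1 lay above all controls in THI (0.734%) and THI + IMZ livers (0.794%). For such separation the share among the 1732 strongly expressed genes, the closer background, was not computed. For a split by system, Serping1, which acts in both, was counted under coagulation. So was Vtn, which also binds complement's terminal complex and was called near the threshold with CTD (adjusted p = 0.0494, edgeR). Split this way, CTD called 9 of 17 coagulation members (8 lower, 1 higher) and 3 of 17 complement members (all lower). Beside these counts stand the 6.03% of all genes and the 15.7% of the 1732 genes called as lower, to which the complement count lies near, and the difference between the systems was not tested.

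Serping1 showed the largest change of any member. It encodes C1 inhibitor, the serpin that blocks C1r and C1s of complement as well as factor XII and plasma kallikrein of the contact system, and is counted here with the serpins. Control livers held 371 to 478 CPM with a median of 455 CPM. The 3 CTD livers held 180.1, 147.5 and 146.0 CPM, each under 0.5 times the lowest control. Serping1 thus fell to 0.366 times the control level, a log2-fold change of -1.45 (SE 0.10, adjusted p = 2.88e-11, edgeR), and by p it ranked 2 among all genes tested with CTD. The call held in all 18 alternatives. With THI the livers held 344, 399.8, 453 and 409 CPM (log2-fold change -0.10, adjusted p = 0.741), which overlapped the controls. With IMZ they held 341, 397, 374 and 352 CPM (-0.24, adjusted p = 0.358). With THI + IMZ they held 393, 371, 368 and 415 CPM (-0.16, adjusted p = 0.501). THI + CTD gave 416, 369, 365 and 407 CPM (-0.15, adjusted p = 0.366), and IMZ + CTD gave 395, 382, 394 and 431 CPM (-0.11, adjusted p = 0.640). No rat of either mixture with CTD came near the CTD rats. The mixtures held 134 or 135 mg/kg bw/day of CTD, against 288 mg/kg bw/day in the CTD group. The lower dose and the partner compound cannot be told apart.

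**Figure D2:**
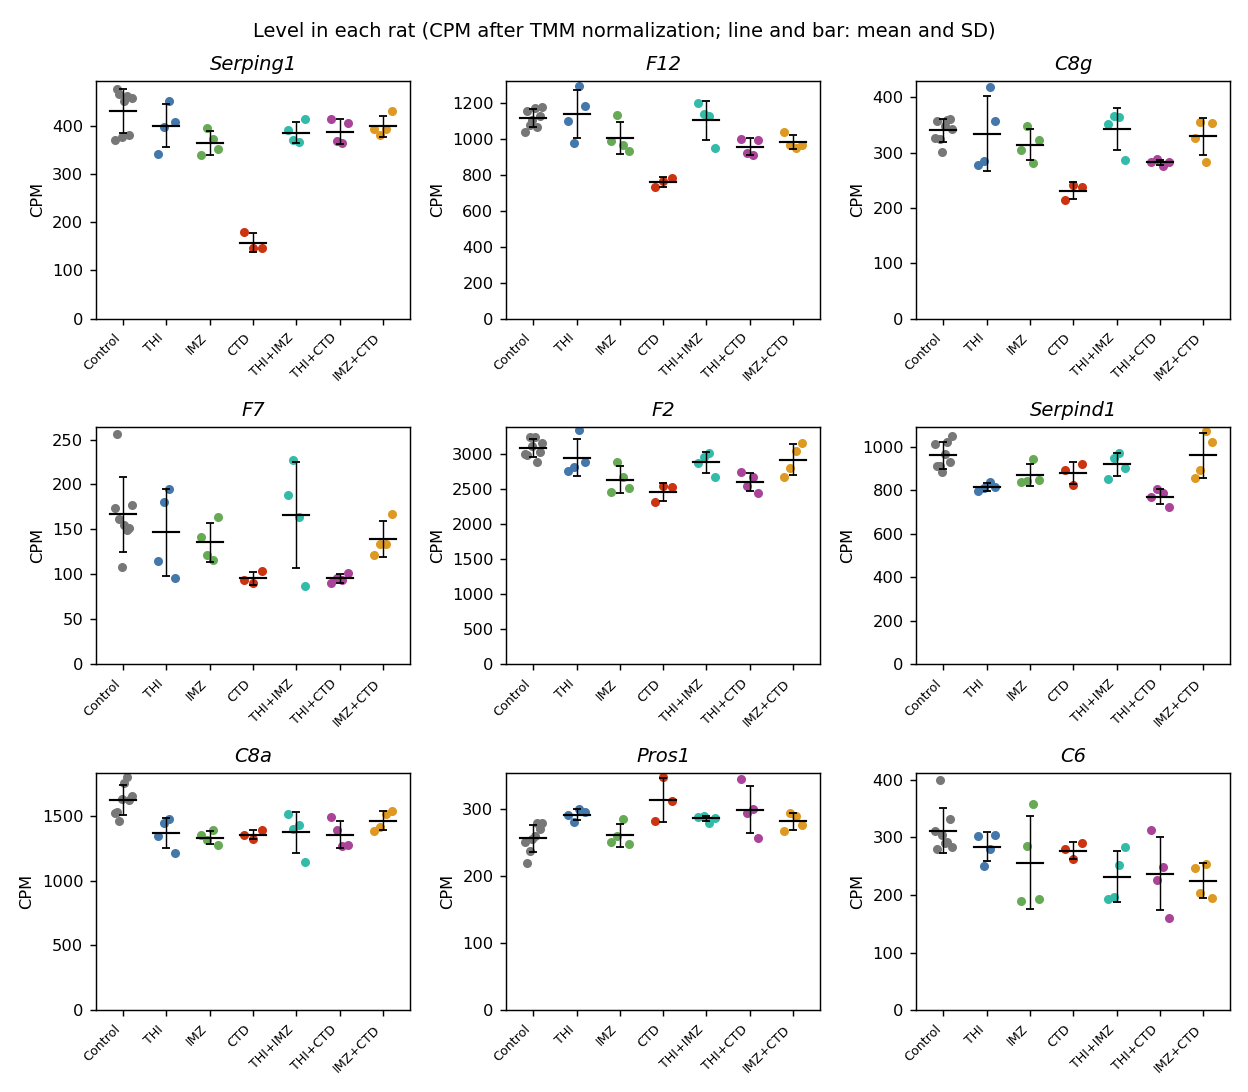
Level of 9 members in each of the 31 rats (vertical axis, CPM after TMM normalization, from 0) by group (horizontal axis), with a line at the mean and a bar of 1 SD. For Serping1 the 3 CTD rats stand at 146.0 to 180.1 CPM and all other rats above 340 CPM, while C6 and F7 spread widely within several groups.

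The contact system starts coagulation on charged surfaces and feeds into kinin release. F12, factor XII, the protease that starts it, measured 1038 to 1175 CPM in controls (median 1115 CPM). CTD livers held 730, 764 and 784 CPM, all below the lowest control, and F12 fell by 0.55 on the log2 scale (SE 0.08, adjusted p = 2.78e-05), a call kept in all 18 alternatives. The THI + CTD rats held 999.9, 919, 911 and 991 CPM and the IMZ + CTD rats 1037, 967, 948 and 967 CPM, in both cases below every control rat. The highest IMZ + CTD rat lay only just below the lowest control, at 1037.8 CPM. The F12 changes were -0.22 with THI + CTD (adjusted p = 0.0868) and -0.18 with IMZ + CTD (adjusted p = 0.269) and were not called. THI gave 1096, 976, 1292 and 1181 CPM and THI + IMZ gave 1196, 1136, 1124 and 949 CPM, with rats on both sides of the control range. IMZ gave 989, 1133, 966 and 933 CPM, with 3 of 4 rats below every control and 1 inside the range, and was not called (adjusted p = 0.633). F11 (factor XI) and Klkb1 (plasma prekallikrein, the partner that activates factor XII) were not called with any treatment, with log2-fold changes between -0.20 and 0.21.

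The vitamin K-dependent proteases carry glutamates that are carboxylated in the liver so that they can bind membranes through calcium. F7, factor VII, which starts clotting together with tissue factor, had 108 to 256 CPM in the controls (median 159 CPM), a wide range. CTD gave 93.3, 90.3 and 104 CPM and THI + CTD gave 90.8, 95.7, 94.0 and 102 CPM, all below every control. The log2-fold change was -0.80 in both (SE 0.22 and 0.20, adjusted p = 0.0141 in both). The CTD call was lost without CTD replicate 1 or 2. The THI + CTD call was lost without THI + CTD replicate 3 and with replicate number added to the fit as a block. THI gave 115, 180.5, 194.8 and 96.1 CPM, and IMZ gave 142, 121, 116 and 164 CPM for F7. THI + IMZ gave 188, 227, 164 and 87.1 CPM, and IMZ + CTD gave 122, 134, 134 and 167 CPM. These F7 values overlapped the controls. F2, prothrombin, the precursor of thrombin, measured 2879 to 3242 CPM in controls with a median of 3072 CPM. With CTD it was 2313, 2545 and 2524 CPM (-0.32, SE 0.08, adjusted p = 0.00571), and with THI + CTD it was 2742, 2541, 2675 and 2447 CPM (-0.24, SE 0.07, adjusted p = 0.0440). In both groups every rat lay below every control. The CTD call of F2 was lost without CTD replicate 1, and the THI + CTD call without any 1 of the 4 THI + CTD rats or of Control replicates 1, 3, 5, 7 and 8. The THI + CTD call of F2 was also lost with no filter, with the replicate block and with only these groups in the fit. With IMZ F2 measured 2462, 2887, 2675 and 2512 CPM, with THI it measured 2754, 2815, 3335 and 2881 CPM. THI + IMZ gave 2872, 2956, 3018 and 2665 CPM and IMZ + CTD gave 2673, 2796, 3041 and 3152 CPM for F2, and none of these 4 treatments was called.

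F10, factor X, which factor VII activates, changed by -0.37 (SE 0.11, adjusted p = 0.0191) with CTD, at 373, 484 and 436 CPM against 498 to 592 CPM in controls. Proc, protein C, an anticoagulant protease of the same family, changed by -0.28 (SE 0.08, adjusted p = 0.0220), at 322, 389 and 399 CPM against 428 to 474 CPM. Both calls were lost without CTD replicate 1, the lowest of the 3 rats for both genes. That of F10 was also lost without CTD replicate 3, and that of Proc with the replicate block. Pros1, protein S, the cofactor of protein C, was the only member called as higher. It had 220 to 279 CPM in controls (median 257 CPM) and 282, 348 and 312 CPM with CTD (0.29, SE 0.08, adjusted p = 0.0127), all above the highest control, and the call was lost without CTD replicate 2, the highest rat, and with only these groups in the fit. THI gave 290.4, 280.3, 299.3 and 295 CPM and THI + IMZ gave 288, 289, 279.7 and 286 CPM, again above all controls. The lowest rat of each lay only just above the highest control, at 278.9 CPM, and neither treatment was called (adjusted p = 0.432 and 0.410). THI + CTD gave 344, 294, 301 and 257 CPM (adjusted p = 0.0744), IMZ gave 251, 260, 285 and 247 CPM, and IMZ + CTD gave 267, 293, 290 and 276 CPM. F9, factor IX, the protease deficient in hemophilia B, had a log2-fold change of 0.22 with CTD (adjusted p = 0.137).

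F2, F7 and C8a (the alpha chain of complement component 8) were the 3 members called with both CTD and THI + CTD, treatments that share their controls. For that reason the 250 bases before their RefSeq start sites are shown, and shared regulation was not tested. They come from the GRCr8 assembly, a later build than the one the reads were mapped to, and are written 5′ to 3′ on the strand of the gene. F2 lies at chr3:98065247-98065496 on the minus strand, F7 at chr16:83202739-83202988 on the minus strand and C8a at chr5:124866632-124866881 on the minus strand. Capitals mark 2 motifs searched on both strands, AGGTCA (reverse complement TGACCT, a half-site of nuclear receptors) and CCAAT (reverse complement ATTGG).
F2: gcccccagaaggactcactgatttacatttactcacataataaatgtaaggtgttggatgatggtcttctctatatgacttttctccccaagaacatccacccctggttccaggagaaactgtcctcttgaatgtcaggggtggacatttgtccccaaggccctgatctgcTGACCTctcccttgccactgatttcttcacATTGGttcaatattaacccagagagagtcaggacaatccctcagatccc
F7: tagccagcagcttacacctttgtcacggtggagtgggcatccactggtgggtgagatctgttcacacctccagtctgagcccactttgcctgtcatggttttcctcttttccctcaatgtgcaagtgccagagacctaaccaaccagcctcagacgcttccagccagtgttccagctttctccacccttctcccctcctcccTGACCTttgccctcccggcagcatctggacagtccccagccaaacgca
C8a: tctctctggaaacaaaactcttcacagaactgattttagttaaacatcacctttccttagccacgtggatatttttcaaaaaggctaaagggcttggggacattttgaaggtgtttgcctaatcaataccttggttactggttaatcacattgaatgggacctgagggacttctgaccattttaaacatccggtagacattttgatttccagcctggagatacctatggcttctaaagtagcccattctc
The F2 window held TGACCT from position -79 and ATTGG from -49, counted from the start site. The F7 window held TGACCT from -48, and the letters of neither motif are in the C8a window. Of the 27 members with a window in the table, 11 (40.7%) held AGGTCA and 8 (29.6%) CCAAT in either direction, where 13.7% and 34.3% of all 27457 windows did. A match of these letters is a description and not a binding site. Members without a window were C1s, C2, C8g, C9, Masp2, Serpind1 and Serping1.

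Among the other serpins, Serpinc1 (antithrombin, the main inhibitor of thrombin and factor X) measured 2541, 2825 and 2552 CPM with CTD against 2920 to 3267 CPM in controls (-0.24, SE 0.08, adjusted p = 0.0376). The call was lost when CTD replicate 1 or 3, or Control replicate 3, 6, 7 or 8, was left out. It was also lost with the replicate block and with only these groups in the fit. Serpind1, heparin cofactor II, which inhibits thrombin, had 885 to 1051 CPM in controls (median 948 CPM) and 769, 805, 789 and 722 CPM with THI + CTD. This change of -0.32 (SE 0.07, adjusted p = 0.00614) had the smallest p of the 4 THI + CTD calls. The call held with any 1 rat left out and was lost with the replicate block (adjusted p = 0.0891, edgeR). THI livers held 795, 811, 838 and 813 CPM, also below every control, at -0.24 (adjusted p = 0.166). IMZ gave 836, 845, 943 and 849 CPM, CTD 892, 823 and 922 CPM, THI + IMZ 853, 947, 973 and 902 CPM, and IMZ + CTD 856, 892, 1074 and 1023 CPM, and none of these was called. Serpinf2, alpha-2-antiplasmin, which inhibits plasmin, was not called with any treatment and had -0.23 with CTD (adjusted p = 0.289).

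Plg (plasminogen, the precursor of the fibrin-cleaving plasmin) was not called, at -0.15 with CTD (adjusted p = 0.348). Vtn, vitronectin, an adhesion protein that also binds complement's terminal complex, was 2537, 2957 and 3053 CPM with CTD against 3114 to 3681 CPM in controls (-0.25, SE 0.08, adjusted p = 0.0494), a call lost in 13 of 18 alternatives, among them leaving out CTD replicate 1 or 2 or Control replicate 1, 3, 5, 6, 7 or 8. F5 (factor V, the cofactor of factor X) and F13b (the carrier subunit of factor XIII, which crosslinks fibrin) were not called in any treatment, with log2-fold changes from -0.24 to 0.16.

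In the lectin pathway, Masp2, the protease that cleaves C4 and C2, was the one called member. CTD livers held 177, 204 and 198 CPM against 224 to 244 CPM in controls (-0.27, SE 0.07, adjusted p = 0.00566), a call lost without CTD replicate 1 and with the replicate block. Masp1 (which activates Masp2) changed by less than 0.10 in either direction with every treatment. Mbl1 and Mbl2 are the mannose-binding lectins. Mbl1 had 222 to 295 CPM in controls (median 276 CPM) and 178, 232, 211 and 217 CPM with IMZ (-0.34, SE 0.10, adjusted p = 0.192). It was -0.30 with CTD (184, 217 and 248 CPM, adjusted p = 0.0747) and -0.29 with THI + CTD (239, 213, 214 and 205 CPM, adjusted p = 0.0961). THI gave 213, 195.0, 268 and 249 CPM, THI + IMZ gave 215, 242, 261 and 259.6 CPM, and IMZ + CTD gave 199, 241, 258 and 236 CPM. With every treatment the Mbl1 values overlapped the controls. Mbl2 had -0.32 with THI + CTD, where all 4 rats lay below all controls (adjusted p = 0.0647), and -0.01 with CTD.

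The classical pathway proteases C1r, C1s and C2 were not called. With CTD their log2-fold changes were -0.22, -0.30 and -0.17 (adjusted p = 0.204, 0.175 and 0.194). C3, on which all routes converge, was listed with 19754 to 24040 CPM in controls and 19090, 18069 and 19027 CPM with CTD. Its change of -0.26 (SE 0.09, adjusted p = 0.0738) was not called although the groups did not overlap. Of the fluid-phase regulators, Cfi (factor I, which cleaves C3b and C4b) had -0.22 with CTD (433, 419 and 445 CPM against 462 to 539 CPM, adjusted p = 0.0820). C4bpa and C4bpb, the chains of the C4b-binding protein, had -0.18 and -0.19 with CTD and -0.26 and -0.39 with THI + CTD (adjusted p = 0.258 and 0.0680).

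Of the 6 terminal components, which build the membrane pore, C8a and C8g were called with CTD and C8a with THI + CTD. C8g was taken up after its values were seen, since it is 1 of the 3 calls for CTD that no alternative removed. It had 301 to 362 CPM in controls and 215, 242 and 237 CPM with CTD, at -0.56 (SE 0.10, adjusted p = 3.65e-04). THI + CTD gave 283, 288, 275 and 283 CPM, below every control but not called (adjusted p = 0.0940). C8a had 1462 to 1801 CPM in controls (median 1625 CPM). CTD gave 1352, 1322 and 1389 CPM (-0.26, SE 0.09, adjusted p = 0.0423), and THI + CTD gave 1491, 1391, 1264 and 1274 CPM (-0.26, SE 0.08, adjusted p = 0.0496). IMZ gave 1351, 1310, 1391 and 1274 CPM, the lowest p of any member with IMZ (-0.28, adjusted p = 0.137), again with every rat below every control. THI gave 1345, 1444, 1473 and 1213 CPM (-0.24, adjusted p = 0.229), THI + IMZ gave 1512, 1401, 1432 and 1145 CPM (-0.24, adjusted p = 0.152), and IMZ + CTD gave 1383, 1413, 1517 and 1534 CPM (-0.15, adjusted p = 0.422). The 2 calls of C8a were near the threshold, and each was lost without any 1 of Control replicates 4 to 8, without any 1 of the 3 CTD rats, or without THI + CTD replicate 2, 3 or 4. Both calls were also lost with no filter, with the replicate block and with only the groups compared in the fit. C8b, whose control values ran from 142 to 616 CPM, was not called.

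C6 had the most negative log2-fold change of any member with IMZ + CTD and with THI + IMZ. It had 280.2 to 400.5 CPM in controls (median 299 CPM), and IMZ + CTD gave 248, 203, 255 and 194 CPM (-0.47, SE 0.15, adjusted p = 0.129), all below every control. THI + IMZ gave 193, 197, 252 and 284 CPM (-0.43, adjusted p = 0.219). THI + CTD gave 313, 226, 248 and 159.7 CPM (adjusted p = 0.149), IMZ gave 189, 285, 358 and 193 CPM (adjusted p = 0.660), THI gave 302, 251, 279.7 and 304 CPM and CTD gave 279.8, 262 and 290 CPM. With THI + CTD 3 of the 4 rats lay below every control, and with IMZ the rats lay from below the controls to within their range. C5 and C9 were not called with any treatment.

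Since a call under 1 compound does not show that compounds differ, the compounds were set against each other, at doses that differed in mg/kg bw/day. CTD livers were lower than THI livers for Serping1 (-1.35, SE 0.11, adjusted p = 1.42e-09), F12 (-0.58, adjusted p = 1.56e-04), C8g (-0.53, adjusted p = 0.00367), Masp2 (-0.37, adjusted p = 0.00201), Proc (-0.35, adjusted p = 0.0174) and Cfi (-0.31, adjusted p = 0.0358). These are 6 of 34 members, where 6.62% of all genes tested were called, 3.2% as lower, and 8.66% as lower among the 1732 genes. The Proc call was lost without CTD replicate 1 or THI replicate 3 or 4, and that of Cfi without any of the 3 CTD rats or THI replicate 1, 2 or 3. The number of calls was 4 without CTD replicate 1 or without THI replicate 3. CTD livers were lower than IMZ livers for Serping1 (-1.21, SE 0.11, adjusted p = 1.16e-08), F12 (-0.40, adjusted p = 0.00864) and C8g (-0.44, adjusted p = 0.0213), 3 members where 4.67% of all genes were called, 2.4% as lower, and 6.24% as lower among the 1732 genes. Without CTD replicate 1 the count was 1, with Serping1 remaining, and C8g was also lost without IMZ replicate 2 or 4. THI and IMZ differed in none of the 34 members by edgeR or DESeq2 (0.01% of all genes called), with 3 at an unadjusted p under 0.05.

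For the mixtures, the observed change was compared with a sum in which the log2-fold changes of the single compounds were scaled by dose (THI by 0.5, IMZ by 0.5 and CTD by 0.47). With THI + CTD, Serping1 had an observed log2-fold change of -0.15 where the sum came to -0.73, a difference of 0.59 (SE 0.08, adjusted p = 2.74e-04). With IMZ + CTD it was -0.11 observed and -0.80 as the sum, a difference of 0.69 (SE 0.08, adjusted p = 1.44e-05). The call held in all alternatives, including every rat left out and the exact dose ratios. Serping1 was the only member called by edgeR in these contrasts, where 0.286% and 1.16% of all genes were called. No member was called for THI + IMZ by edgeR or DESeq2 (0.0151% of all genes called), with 2 at an unadjusted p under 0.05. F7 had -0.80 observed and -0.47 as the sum with THI + CTD and -0.26 and -0.52 with IMZ + CTD, and neither difference was called. No liver given CTD alone at the dose of a mixture was sequenced. In these comparisons the lower CTD dose and the partner compound therefore cannot be told apart.

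**Figure D3:**
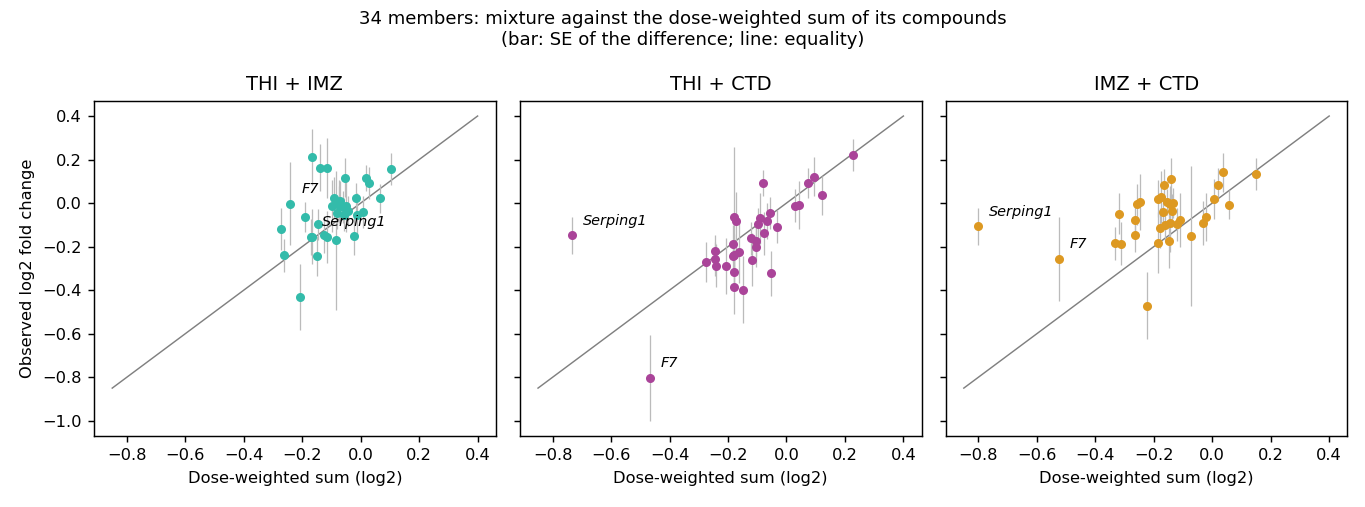
Observed log2-fold change of the 34 members in each mixture (vertical axis) against the dose-weighted sum of the single-compound changes (horizontal axis), with the SE of the difference as a bar and a line at equality. Serping1 lies far above the line in the panels of THI + CTD (-0.15 observed, -0.73 as the sum) and IMZ + CTD (-0.11 and -0.80), and no other member was called.

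Further genes of both systems and of their supply had 57 rows, of which 2 carry the symbol Serpina10. Of these rows, 2 were called as higher and 11 as lower with CTD. With THI + CTD 8 were called as lower, with IMZ + CTD 1 as lower and with the other treatments none. Of all genes tested, 12.7% were called with CTD (6.03% as lower), 4.39% with THI + CTD (1.71% as lower) and 1.46% with IMZ + CTD, and of the 1732 strongly expressed genes 25.1% with CTD. Genes named below beyond the 3 smallest p of a treatment were picked after their values were seen. Among the 12 other complement components, 6 were lower with CTD. These were C4b (-0.74, adjusted p = 9.51e-04), the source of the classical pathway's C4b, Cfd (-0.75, adjusted p = 0.00474) and Cfp (-0.61, adjusted p = 0.00154), factor D and properdin of the alternative pathway, and C1qa, C1qb and C1qc (-0.54, -0.57 and -0.44), the chains of C1q. The same 6 were called with THI + CTD, at -0.53, -0.78, -0.45, -0.49, -0.52 and -0.57, together with Colec11 (-0.28). Colec10, a lectin-pathway collectin, was higher with CTD (0.76, adjusted p = 6.30e-05) and at 0.02 with THI + CTD. C1q and properdin are made by macrophages and other myeloid cells. Of the 8 Kupffer cell markers (the liver's macrophages), Cd68 and Csf1r were lower with CTD, and Cd163 and Csf1r with THI + CTD. The summed Kupffer marker level was 363 to 611 CPM in controls, 305 to 485 CPM with CTD and 306 to 427 CPM with THI + CTD, and the part of these cells in the C1q and Cfp values was not tested.

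**Figure D4:**
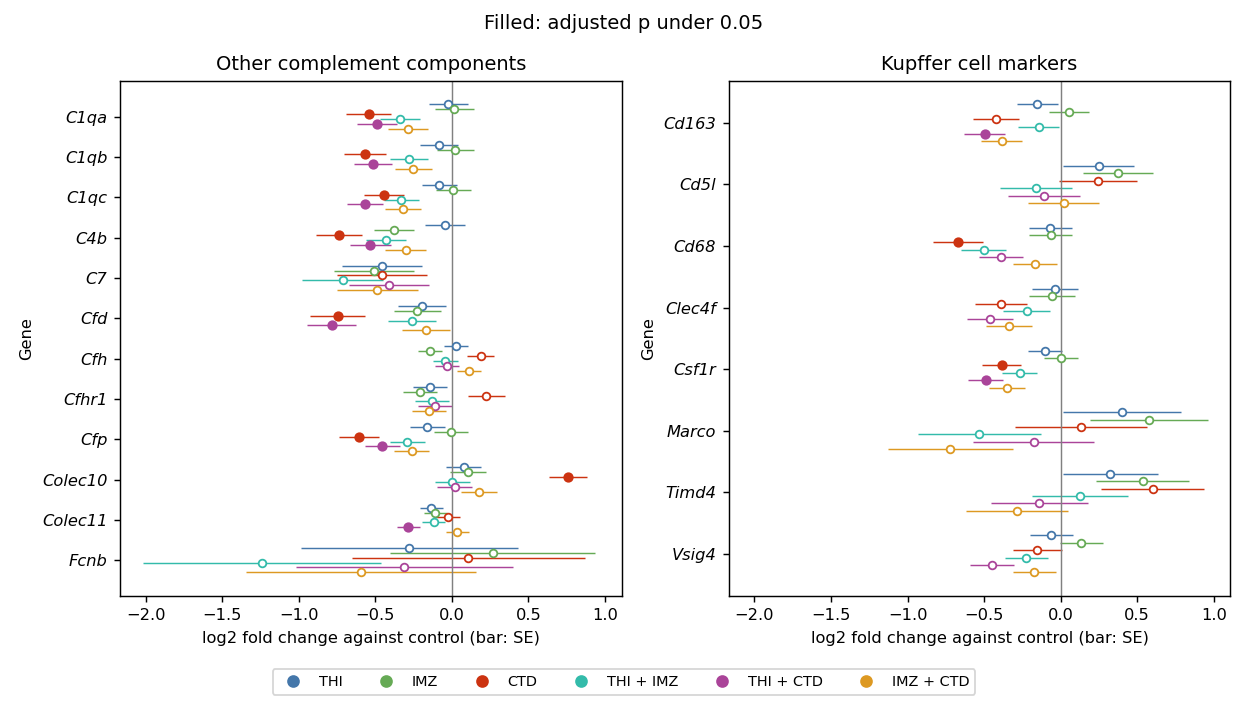
Log2-fold change against control (horizontal axis, with the SE as a bar) of 12 other complement components (left) and 8 Kupffer cell markers (right) in the 6 treatments (colors), with filled points at an adjusted p under 0.05. With CTD and THI + CTD the points of C1qa, C1qb, C1qc, C4b, Cfd and Cfp are filled and lie left of 0, and those of Colec10 are filled for CTD only.

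Proz (protein Z, another vitamin K-dependent factor) fell by 0.52 on the log2 scale with CTD (adjusted p = 7.08e-05), while the fibrinogen chains Fgb and Fgg had 0.15 and 0.20 (adjusted p = 0.465 and 0.208). Cpn2, the regulatory chain of carboxypeptidase N, was the gene lower with IMZ + CTD (-0.51, adjusted p = 0.00566). F8, factor VIII, which is made by endothelial cells, was lower with CTD (-0.39) and THI + CTD (-0.42), and 2 of 8 sinusoidal endothelial markers, Kdr and Cdh5, were lower with CTD (summed level 281 to 356 CPM against 329.9 to 417 CPM in controls), whose part in the F8 value was not tested. Of 6 genes of the vitamin K cycle and of factor secretion, with Ggcx and Vkorc1 among them, none was called by edgeR with any treatment. Hnf4a, a transcription factor of hepatocytes, had -0.19 with CTD (adjusted p = 0.391). Of the 15 acute phase genes, 4 were lower with CTD, among them Itih3, Hpx and Serpina3n (-0.51, -0.49 and -0.60). The 4 genes stand beside 6.03% of all genes and 15.7% of the 1732 genes called as lower with CTD. The summed acute phase level was 29170 to 31830 CPM with CTD against 34220 to 39960 CPM in controls. It also lay below all controls with IMZ (31320 to 32770 CPM) and THI + CTD (28900 to 33460 CPM), and overlapped them with the other treatments. With THI + CTD 3 acute phase genes were lower (1.71% of all genes and 5.08% of the 1732 genes), with IMZ and IMZ + CTD 1 each, and with THI + IMZ 1 was higher. Of the 10 hepatocyte markers, Apoc3 and Rbp4 were lower with CTD, and the summed level was 207000 to 224200 CPM against 205100 to 265700 CPM in controls. Of 9 stellate cell markers 1 was higher and 1 lower with CTD, and no lymphocyte (9 genes) or cholangiocyte marker (6 genes) was called with any treatment. All 10 markers of dividing cells and 5 of 6 red blood cell markers were higher with CTD, the latter at a summed level of 159.8 to 195.4 CPM against 28.3 to 70.4 CPM, and their part in the member values was not tested.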

How the data were processed

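The authors prepared stranded total RNA libraries, trimmed and mapped the reads to Rnor_5.0 with STAR 2.5.2b and deposited counts per gene, without normalization. The strand setting of the counting is not given in the sources used here. A second deposited table holds a normalized signal, the counts divided by DESeq2 size factors, and was used for a check only. No column of other samples was present.

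Groups and replicate numbers came from the sample labels. In R 4.3.3, edgeR 4.0.16 kept genes with 2 or more counts in total, normalized with TMM, and fitted 1 quasi-likelihood model with 7 group means. The 12 contrasts were the 6 treatments against control, 3 between compounds and 3 of mixtures against dose-weighted sums, with Benjamini-Hochberg adjustment over all genes. The pipeline was tested on simulated data. Each label is a separate rat. The members and lists were chosen with earlier results of these data known. Members given rat by rat were those called in at least 2 treatments, the smallest p per direction where any was called and the 2 smallest p where none was. Alternatives were DESeq2 1.42.0 size factors and Wald test, filterByExpr, no filter, thinned counts, only the groups compared, a replicate block, exact dose ratios and each rat left out. Promoters and names came from RefSeq tables.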

Additional observations from a re-analysis of the deposited data

Results flagged for a closer look

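Within the groups of 4 to 8 rats, 3 of 54 sets of values for the 9 members given rat by rat held a rat apart from the others, and chance flags about 1 in 20 such sets. C6 was 400.5 CPM in Control replicate 3, where the other controls ran from 280.2 to 332.0 CPM. F7 was 255.7 CPM in Control replicate 2, where the others ran from 108.2 to 177.4 CPM. Serpind1 was 943.0 CPM in IMZ replicate 3, where the others ran from 835.7 to 848.8 CPM.

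The difference between compounds itself passed the test of edgeR for several members. CTD against THI gave log2 differences of -1.35 for Serping1, -0.58 for F12, -0.53 for C8g, -0.37 for Masp2, -0.35 for Proc and -0.31 for Cfi. CTD against IMZ gave -1.21 for Serping1, -0.40 for F12 and -0.44 for C8g. Serping1 also lay off the dose-weighted sum by 0.59 with THI + CTD and by 0.69 with IMZ + CTD.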

How the results depend on the processing

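Serping1, F12 and C8g kept their CTD calls in all 18 alternatives, and no result changed direction past the threshold. The number of members called with CTD was 7 with the replicate block (Masp2, Proc, Serpinc1, C8a and Vtn were lost) and ran from 4 (without CTD replicate 1) to 13 when 1 rat was left out. With THI + CTD it was 11 with the Wald test of DESeq2, 7 with filterByExpr, 2 with no filter and 0 with the replicate block (Serpind1 at an adjusted p of 0.0891), and ran from 1 (without THI + CTD replicate 3) to 5 when 1 rat was left out. The Wald test of DESeq2 called 2 members with THI, 2 with IMZ, 1 with THI + IMZ, 11 for CTD against THI, 7 for CTD against IMZ and 4 for IMZ + CTD against its sum. With only the groups compared in the fit, 1 member (C6) was called with IMZ + CTD, 2 for CTD against THI, 1 for CTD against IMZ and 2 for IMZ + CTD against its sum. Leaving out 1 rat gave 4 to 6 calls for CTD against THI and 1 to 4 for CTD against IMZ. The share of all genes called in each alternative is not set beside these member counts, and the causes were not tested. Rats with the same replicate number in different groups had a median correlation of 0.023, with 20 of 78 pairs over 0.1. Rats with different numbers in different groups had a median of -0.00931, with 55 of 326 pairs over 0.1. Of 27 rats, 9 were most like their own number. The numbers were not taken as pairs, and the replicate block stands as an alternative. Each member had at least 1899 counts in each library, and the comparisons rest on 3 to 8 rats per group.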
